A study of Mus musculus with 9 samples.

Results

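A set of 10 imprinted genes that are expressed from the paternal chromosome were followed in wild-type and Lim1 mutant renal vesicles: Dlk1, Peg3, Mest, Ndn, Magel2, Plagl1, Sgce, Impact, Airn and Slc38a4. Igf2, which is also expressed from the paternal copy, was left out of the set and is given only beside it. The members were all probe sets whose single gene symbol in the platform annotation is one of these 10 names, which gave 32 of 45101 probe sets. A further probe set carrying both Airn and Igf2r was not used. The array reads total RNA of a gene and does not separate the parental copies, so imprinting itself was not measured.

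Renal vesicles are the first epithelial structures of the nephron, and Lim1 (now Lhx1) encodes a LIM homeodomain transcription factor needed there. Vesicles were taken by laser capture from kidneys at stage E12.5, with 5 wild-type and 4 Lim1 mutant samples of about 30 to 50 vesicles each. The design text calls the samples biologically independent, and the sources used here do not give the mutant allele, the strain, the sex or the number of embryos behind a sample. Both groups share the stage, the capture and an amplification in 2 rounds. The targeted gene set the groups apart at the dimmer of its 2 probe sets, which read 2327 to 17587 in the wild type and 6.88 to 10.5 in the mutants (adjusted p = 0.00329 in limma). The brighter one read 1696 to 18555 and 4108 to 4951, with overlap (adjusted p = 0.833), and the part of the gene that either covers was not examined. All 10 vesicle markers on the array passed the filter. For example, Wnt4 read 12926 to 41699 in the wild type and 15930 to 43230.5 in the mutants, and Jag1 read 20141 to 49181 and 22777 to 24991. Of the 10, which include Lhx1, none passed the test in limma at its brightest probe set, 6 had differences below 0, and the median was -0.42 on the log2 scale.

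In imprinted genes 1 parental allele is silenced, as a rule through DNA methylation laid down in the germ line at a control region. The genes lie in clusters in which paternally and maternally expressed neighbours are controlled together. Many paternally expressed members promote fetal growth, and many are active in mesenchyme and other progenitor tissue of the embryo and fall in level after birth. Plagl1, a zinc finger transcription factor, is known in the mouse to regulate several other imprinted genes. The members lay on 7 chromosomes, with 3 on chromosome 7 (Peg3, Ndn and Magel2), 2 on chromosome 6 (Mest and Sgce) and 1 on each of the others. Magel2 was the next protein-coding gene after Ndn, and Usp29, Copg2, Peg10 and Igf2r were next to Peg3, Mest, Sgce and Airn in the RefSeq gene order.

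No member changed between the groups in a way that passed the test. Of the 32 probe sets, 24 passed the filter on dim values and were tested, and every gene kept at least 1. The 8 left out were probe sets of Peg3 (2), Ndn (2), Plagl1, Sgce, Impact and Airn (1 each), with signals from 1.13 to 1008. None of the 24 passed an adjusted p of 0.05 in limma, with adjusted p from 0.651 to 0.997, and 0.0333% of all 27022 tested probe sets did. At an unadjusted p of 0.05, 2 of the 24 passed, where 6.67% of all tested probe sets did. The groups were without overlap at 0 of the 24, against 2.25% of all tested probe sets. Differences are mutant minus wild type on the log2 scale, after a constant of 42.4 was added to each signal, which understates the change of dim probe sets. Differences were above 0 at 13 of the 24 and below 0 at 11, where 52.7% of all tested probe sets were above 0. Taking each gene at its brightest probe set, 5 of the 10 differences were above 0 and 5 below, with a median of 0.03. Over the 13226 tested genes 56.5% were above 0, with a median of 0.07. Without wild-type arrays 1 and 3, which correlated least with the other arrays, 0 member probe sets passed in limma, and 2 of the 25 tested in that fit had an unadjusted p under 0.05, as did 7.45% of all tested probe sets.

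**Figure D1:**
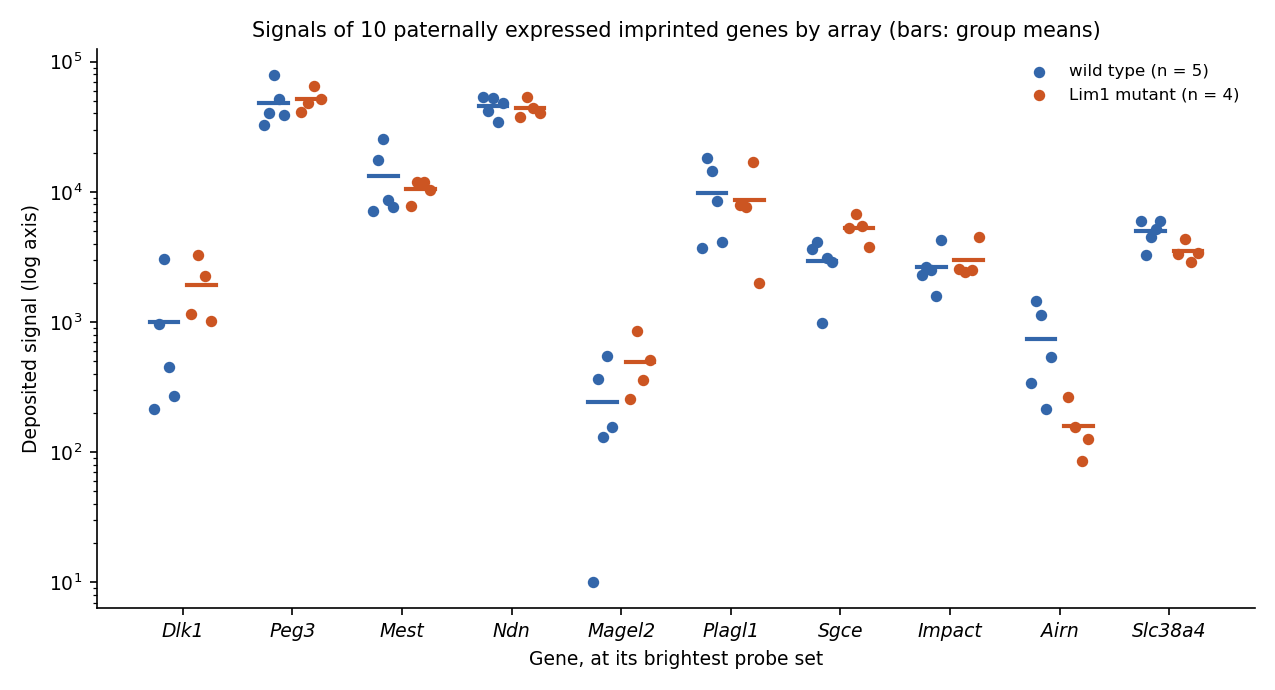
Deposited signals (log axis) of the 10 genes at their brightest probe sets on each array, with bars at the group means for wild type (n = 5) and Lim1 mutants (n = 4). Every gene shows overlapping groups, with Dlk1 and Sgce tending higher and Airn lower on the mutant arrays, and Ndn lies within a narrow band. Heights of different genes cannot be compared, because probe sets differ in their response.

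Dlk1 encodes a transmembrane protein with EGF repeats, related to Notch ligands, that holds back the differentiation of progenitors. On wild-type arrays 1 to 5 its signal was 213, 973, 3067, 448 and 272, and on mutant arrays 1 to 4 it was 1144, 3251, 2239 and 1016. All 4 mutant arrays lay above 4 of the 5 wild-type arrays, and wild-type array 3 alone reached the mutant range. The means were 994 ± 1196 (SD, n = 5) and 1913 ± 1047 (n = 4), and the log2 difference was 1.37 ± 0.71 (standard error, adjusted p = 0.788, exact permutation p = 0.127). Its 95% interval ran from -0.19 to 2.93, so both no change and a large rise lay within the error. Without wild-type array 3 the difference was 1.91 (adjusted p = 0.498). This was the highest value with any single array left out, and the lowest was 1.05. The other Dlk1 probe set was dimmer and had a difference of 0.33 ± 0.65, with its highest signal, 613, again on wild-type array 3.

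Dlk1 shares its imprinted domain with Meg3, a long noncoding RNA expressed from the maternal copy. Meg3 read 6990.1, 11479, 68099, 6734 and 2277 on wild-type arrays 1 to 5 and 6566, 16289, 15454 and 8151 on mutant arrays 1 to 4. At these brightest probe sets both genes thus had high signals on wild-type array 3 and mutant arrays 2 and 3, and low ones on wild-type array 5. The other Meg3 probe sets did not all share this on the mutant arrays. The second brightest read 4243, 2194, 2704 and 3820 on mutant arrays 1 to 4, and the third brightest 1470, 3660, 3112 and 2139. The correlations below were computed at the brightest probe sets only. Over the 9 arrays their normalised log2 signals correlated at r = 0.79 (exact permutation p = 0.00391, 0.0371 adjusted over 19 correlations) and at rho = 0.73 (exact permutation p = 0.0311, 0.296 adjusted). Without the 2 arrays farthest from the median of Dlk1, wild-type array 1 and mutant array 2, r was 0.87. Meg3 itself had a difference of 0.16 ± 0.73 (adjusted p = 0.984), and its 9 tested probe sets ranged from -0.81 to 0.48. Rian, another maternally expressed RNA of the domain, had a difference of -0.50 ± 0.56. Rian correlated with Dlk1 at r = 0.45 (exact permutation p = 0.236, 0.592 adjusted) and rho = 0.35 (exact permutation p = 0.359, 0.67 adjusted). Mirg, a further maternally expressed RNA there, had a difference of 0.52 ± 0.57 (adjusted p = 0.907 in limma), and its correlation with Dlk1 was not computed.

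Mest, also called Peg1, encodes a protein of the alpha/beta hydrolase family and is a known marker of embryonic mesoderm. Its signal was 7156, 17659, 25392, 8639 and 7694 on wild-type arrays 1 to 5, and 7824, 11799, 11933 and 10266 on mutant arrays 1 to 4. The mutants fell inside the wild-type range, whose upper end was set by arrays 2 and 3. The log2 difference was -0.18 ± 0.38 (adjusted p = 0.956, exact permutation p = 0.651, 95% interval -1.02 to 0.65), and it was 0.09 without wild-type array 3. Copg2, the coatomer subunit next to it, had a difference of -0.21 ± 0.52.

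Wild-type arrays 2 and 3 were also high in markers of stroma and mesenchyme. This was not particular to stroma on array 3, which had the highest level of the endothelial (1.35), macrophage (1.16) and neural (0.87) lists too. The renal vesicle list was lowest on these arrays, at -0.45 on array 2 and -0.55 on array 3. Of 16 such markers, 14 were tested, none passed the test, and the median of their differences was -0.44, with 5 above 0. Their summed signal was 25951 to 201945 in the wild type and 32524 to 68397 in the mutants. None of the 16 was at 0, and Dpt and Ogn were below the filter. The level of the list, the median deviation of its members from their means over the 9 arrays, was 2.15 on wild-type array 3 and 0.94 on array 2, while arrays 1, 4 and 5 had -0.76, -0.40 and -0.61. It was -1.49, 0.88, 0.53 and -0.68 on mutant arrays 1 to 4. Mest correlated with this level at r = 0.91 (exact permutation p = 0.000576, 0.0109 adjusted over 19 correlations) and at rho = 0.87 (exact permutation p = 0.00451, 0.0857 adjusted). Without wild-type arrays 2 and 3, the farthest from the median of the level, r was 0.78. In captured tissue a difference in the share of such cells and a difference in RNA per cell cannot be told apart.

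For the other members the correlation with the stroma level was lower. Dlk1 had r = 0.67 (exact permutation p = 0.0481, 0.304 adjusted) and rho = 0.50 (exact permutation p = 0.178, 0.67 adjusted). Plagl1 had r = 0.63 (exact permutation p = 0.0674, 0.32 adjusted) and rho = 0.67 (exact permutation p = 0.0589, 0.373 adjusted). Both lay lower without wild-type arrays 2 and 3, at r = 0.63 for Dlk1 and 0.44 for Plagl1. For the 7 remaining members r ran from -0.44 for Sgce to 0.55 for Peg3. The lowest adjusted p of those 7 was 0.48. Several of these values rest on wild-type arrays 2 and 3: without them r turned to 0.51 for Sgce and to -0.48 for Airn, and was 0.17 for Peg3. The differences between these correlations were not tested. These 19 correlations were chosen after values had been seen, no batch is recorded for the arrays, and each group holds too few arrays for a correlation within it.

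**Figure D2:**
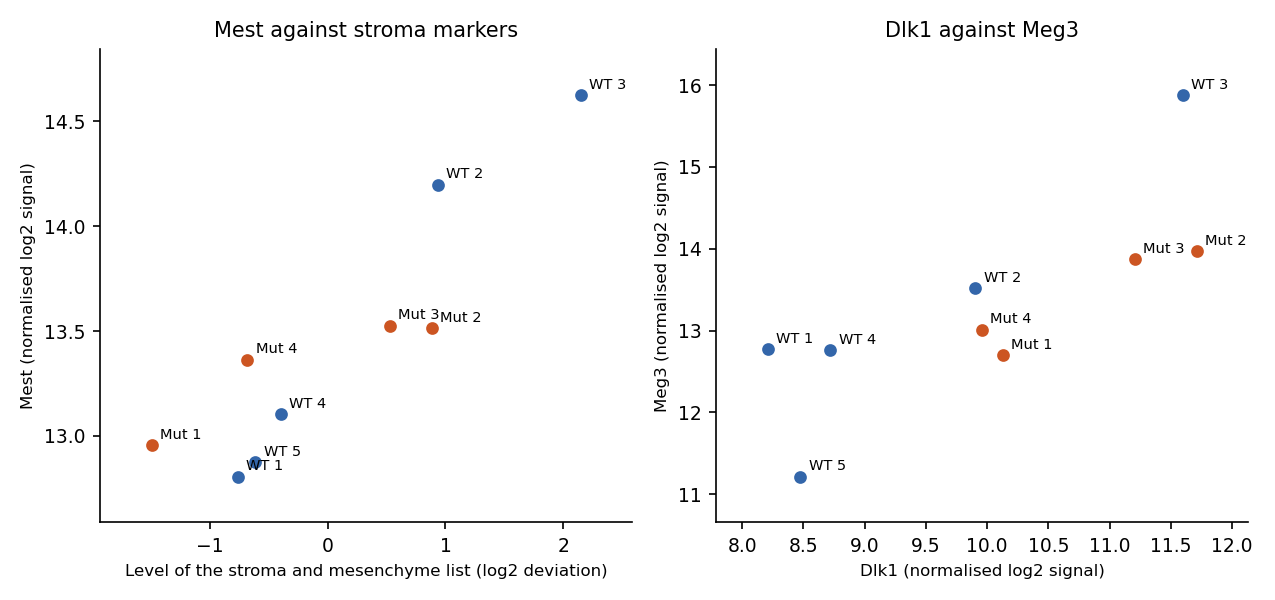
Left, normalised log2 signal of Mest against the level of the stroma and mesenchyme list (log2 deviation); right, normalised log2 signal of Meg3 against that of Dlk1; each point is 1 array, blue for wild type (WT) and orange for mutants (Mut). In both panels wild-type array 3 stands at the upper right, and Mest follows the list over the 9 arrays (r = 0.91) without separating the groups.

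Peg3 encodes a large zinc finger protein and lies in an imprinted domain of chromosome 7. It was bright at its main probe set, with signals of 32781, 40056, 79444, 51574 and 38667 on wild-type arrays 1 to 5 and 40683, 48475, 64981 and 52094 on the mutant arrays. The mutants lay within the wild-type range, and the highest signal was again that of wild-type array 3. The means were 48504 ± 18588 and 51558 ± 10136, and the difference was 0.14 ± 0.22 (95% interval -0.33 to 0.61, adjusted p = 0.94, exact permutation p = 0.571). At its other 2 tested probe sets the differences were 0.02 ± 1.03 and 0.14 ± 0.58. There the signals scattered widely within each group, from 41.7 to 2763 in the wild type and 204 to 2912 in the mutants at the brighter of them. Of its neighbours, Usp29 and the maternally expressed zinc finger gene Zim1 were below the filter.

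Ndn and Magel2 encode MAGE family proteins, and both genes lie in the mouse region that corresponds to the Prader-Willi domain. Ndn, a growth suppressor of postmitotic neurons, was steady. Its main probe set read 53357, 41443, 52459, 34490.1 and 47952 on wild-type arrays 1 to 5 and 37338, 53321, 44295 and 40269 on the mutant arrays. The groups covered nearly the same range. The difference was -0.09 ± 0.14 (adjusted p = 0.943, exact permutation p = 0.532), and its 95% interval of -0.39 to 0.22 was the narrowest among the 10 genes at their brightest probe sets. Of the 6 tested Ndn probe sets, 5 had differences below 0, from -0.22 to -0.03, and the dimmest had 0.28. Several of these probe sets carry the suffix that Affymetrix gives to designs with shared sequence, so they may read related transcripts and are not independent.

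Magel2, which takes part in a ubiquitin ligase complex of endosomes, has 1 probe set. It read 9.99, 362, 131, 551 and 156 on wild-type arrays 1 to 5 and 256, 857, 356 and 507 on the mutant arrays. Wild-type array 1 was far below all others, and 2 wild-type arrays lay inside the mutant range. The difference was 1.19 ± 0.67 (adjusted p = 0.80, exact permutation p = 0.151, 95% interval -0.28 to 2.65). Without wild-type array 1 it was 0.69, and without wild-type arrays 1 and 3 it was 0.45. Across the arrays Ndn and Magel2 did not move together, with r = -0.25 (exact permutation p = 0.515, 0.75 adjusted) and rho = -0.43 (exact permutation p = 0.25, 0.67 adjusted). Mkrn3, the paternally expressed ring finger gene after Magel2, had a difference of 0.01 ± 0.60, which fell to -0.04 with median centring.

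Sgce and Airn were the members with an unadjusted p under 0.05. Sgce encodes epsilon-sarcoglycan, a membrane protein tied to the dystrophin complex. Its signal was 3663, 4127, 985, 3079 and 2884 on wild-type arrays 1 to 5 and 5257, 6713, 5443 and 3777 on mutant arrays 1 to 4. Mutants 1 to 3 lay above every wild-type array, mutant 4 lay below wild-type array 2, and wild-type array 3 was lowest. The means were 2948 ± 1202 and 5298 ± 1202, and the difference was 0.95 ± 0.41 (unadjusted p = 0.0418 in limma, adjusted p = 0.737, exact permutation p = 0.0397, 95% interval 0.04 to 1.85). Over the 19 alternatives it ranged from 0.61, without wild-type array 3, to 1.11, and the lowest adjusted p was 0.651. It thus did not pass once all tested probe sets were counted. Peg10, the paternally expressed neighbour of Sgce, was below the filter, while Ppp1r9a and Asb4 from the same domain, expressed from the maternal copy in some tissues, had limma differences of 0.06 ± 0.30 and -1.65 ± 0.62 (adjusted p = 0.984 and 0.715).

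Airn is a long noncoding RNA that is transcribed antisense to Igf2r from inside that gene and silences it in cis on the paternal chromosome. At its brightest probe set it read 342, 1461, 1134, 215 and 536 on wild-type arrays 1 to 5 and 263, 157, 85.7 and 125.7 on mutant arrays 1 to 4. All mutants lay at the low end, and the groups overlapped only through wild-type array 4 and mutant array 1. The means were 738 ± 536 and 158 ± 76.0, and the log2 difference was -1.84 ± 0.57 (unadjusted p = 0.00797 in limma, adjusted p = 0.651, exact permutation p = 0.0238, 95% interval -3.10 to -0.59). This was the member with the largest difference in size, and over the 19 alternatives it ran from -2.20 to -1.37. The other 3 tested Airn probe sets did not share it, at -0.45 ± 0.93, 0.15 ± 0.90 and 0.12 ± 0.68. Because Airn overlaps Igf2r, and neither the position nor the strand of the probes was examined, signals of the 2 transcripts cannot be told apart here. Igf2r had a difference of -0.19 ± 0.27 (adjusted p = 0.931) and correlated with Airn over the 9 arrays at r = -0.03 (exact permutation p = 0.934, 0.934 adjusted) and rho = 0.27 (exact permutation p = 0.493, 0.67 adjusted). Without wild-type arrays 2 and 3, the farthest from the median of Airn, r was 0.63, so the value rests on those arrays.

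Markers of other cell types are given beside Airn. Differences were above 0 at 7 of 10 tested macrophage markers and at 5 of 9 of cap mesenchyme. They were above 0 at 2 of 7 erythroid, 1 of 6 neural and 2 of 5 adrenal and gonad markers, and none of these passed the test. Of 16 markers of the ureteric bud 12 were tested, 11 of them with differences below 0 and none past the test. Their summed signal was 22809 to 80925 in the wild type and 9455 to 19707.5 in the mutants. None was at 0, with Gata3, Krt19, Hoxb7 and Slco4c1 below the filter. The gap between the sums depended on single markers. Without Emx2, which read 1617 to 11077 in the wild type and 867 to 1250 in the mutants, the sums overlapped. The level of the list was 0.36, 1.41, -0.23, -0.12 and 0.16 on wild-type arrays 1 to 5 and -0.99, -0.60, 0.08 and -0.58 on mutant arrays 1 to 4. It was highest on wild-type array 2, where Airn was highest too. It did not follow Airn on mutant array 3, which had the lowest Airn signal but a level above those of wild-type arrays 3 and 4. Of 15 endothelial markers 13 were tested, all 13 with differences below 0, and 1 passed (Cldn5, a tight junction protein, named after its values were seen). Their summed signal was 15034 to 30468 in the wild type and 5361 to 7724 in the mutants, with none at 0 and Pecam1 and Tie1 below the filter. That gap rests on Cldn5: without it the sums overlapped, at 5442 to 21223 and 4752 to 6442. The part of any of these lists in the Airn values was not tested.

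**Figure D3:**
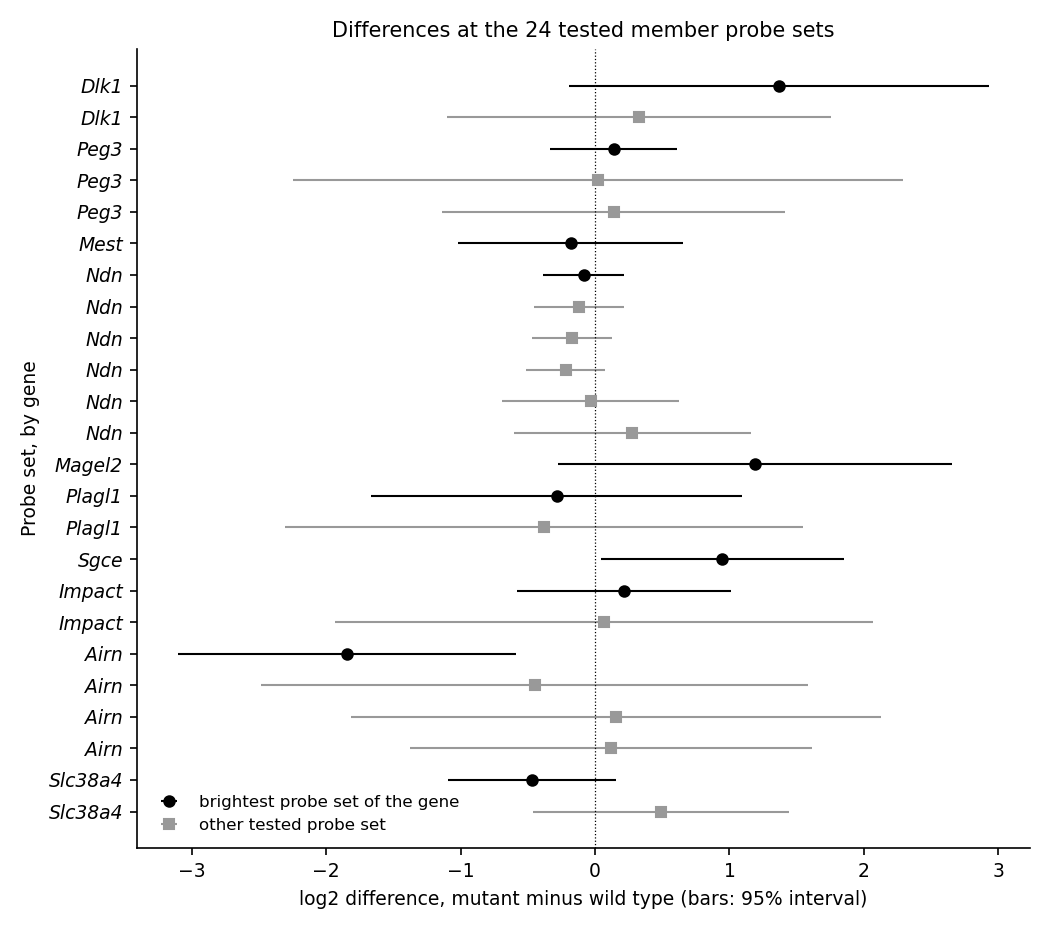
Mutant minus wild-type log2 differences at the 24 tested probe sets, with 95% intervals (5 wild-type and 4 mutant arrays), in black for the brightest probe set of each gene and in grey for the others. Only the brightest probe sets of Sgce (0.04 to 1.85) and Airn (-3.10 to -0.59) have intervals that leave out 0 before adjustment, and the Slc38a4 probe sets point in opposite directions.

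Plagl1, the zinc finger factor named above, varied more between arrays of a group than any other member when set beside tested probe sets of like brightness. Its signal ran from 3691 to 18052 in the wild type (3691, 18052, 14352, 8507 and 4139.6 on arrays 1 to 5) and was 7971, 7584, 16865 and 2008 on the mutant arrays. High and low arrays occurred in both groups. The difference was -0.29 ± 0.63 (adjusted p = 0.958, exact permutation p = 0.683, 95% interval -1.66 to 1.09), and without mutant array 4 it was 0.30. The pooled SD within groups was 1.14 on the log2 scale, at the 98.1st percentile when set among the 1000 other probe sets closest in mean. On the same measure Mest was at the 87.1st, Peg3 at the 79.7th and Dlk1 at the 76.4th percentile. Ndn was at the 28.1st, Impact at the 26.5th and Slc38a4 at the 9.69th. Its other tested probe set had a difference of -0.38 ± 0.88.

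Impact encodes a regulator of the translational stress kinase Gcn2. Its main probe set read 2296, 2633, 2499, 1594 and 4244 on wild-type arrays 1 to 5 and 2569, 2410.0, 2490.1 and 4532 on the mutant arrays. Mutant arrays 1 to 3 were close to each other and lay amid the wild-type arrays, while mutant array 4 and wild-type array 5 were both high. The difference was 0.22 ± 0.36 (adjusted p = 0.945, exact permutation p = 0.365). Its other tested probe set had a difference of 0.06 ± 0.91, with signals from 51.8 to 1753 in the wild type.

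Slc38a4, an amino acid transporter of the system A family, is best known from liver and placenta. Its brighter probe set read 5975, 3258, 4492, 5179.9 and 5953 on wild-type arrays 1 to 5 and 3313, 4371, 2876 and 3418 on the mutant arrays. The mutants were at the low end, though wild-type array 2 lay below 3 of them. The means were 4972 ± 1138 and 3494 ± 629.9 and the difference was -0.47 ± 0.28 (adjusted p = 0.811, exact permutation p = 0.0794, 95% interval -1.10 to 0.15). Its other probe set pointed the other way, from 3024 ± 1492 to 4211 ± 1913, a difference of 0.49 ± 0.43 (adjusted p = 0.881). The data therefore give no single direction for this gene.

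On the normalised scale, the member genes did not peak on a common array. Mutant array 2 and wild-type array 2 each held the highest value of 3 of the 10 genes, and wild-type array 3 that of 2. Wild-type array 1 held the lowest value of 4, namely Dlk1, Peg3, Mest and Magel2. The ratio of 3 prime to 5 prime Gapdh signal, a measure of transcript length after amplification, was 87.6 on wild-type array 3 and 12.4 to 61.4 on the others. The same ratio for actin did not set that array apart, at 18.0 there and 14.7 to 25.2 on the others, highest on mutant array 2. The part of either ratio in the values of wild-type array 3 was not tested.

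The other imprinted genes gave a background for the set. Of 25 other paternally expressed genes listed, 16 had a probe set and 11 were tested. Of these, 1 passed, Igf2, the fetal growth factor, which rose from 24969.5 ± 4617 to 54891 ± 6917 (difference 1.16 ± 0.15, adjusted p = 0.0236). That call held in 6 of the 19 alternatives and was lost in the others, with adjusted p up to 0.563, while the difference stayed between 1.05 and 1.23 in all 19. The remaining 10 had differences from -0.92 to 0.34. They include Nnat, a small membrane protein of neural tissue, at 0.18 ± 0.48. Snrpn, from the Ndn domain, was below the filter. Of 31 maternally expressed genes listed, 27 had a probe set and 20 were tested, none passed in limma, and 2 had an unadjusted p under 0.05. Their differences at the brightest probe sets had a median of -0.01, with 9 above 0 and 11 below. Over all 47 tested maternal probe sets the median was -0.18, with 16 above 0 and 31 below. Cdkn1c, a cell cycle inhibitor, had a difference of -0.06 ± 0.26 and Grb10, an adaptor that restrains growth signalling, one of 0.10 ± 0.19 at its brightest probe set. The other tested Grb10 probe set read -1.61 ± 0.73 (adjusted p = 0.748).

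**Figure D4:**
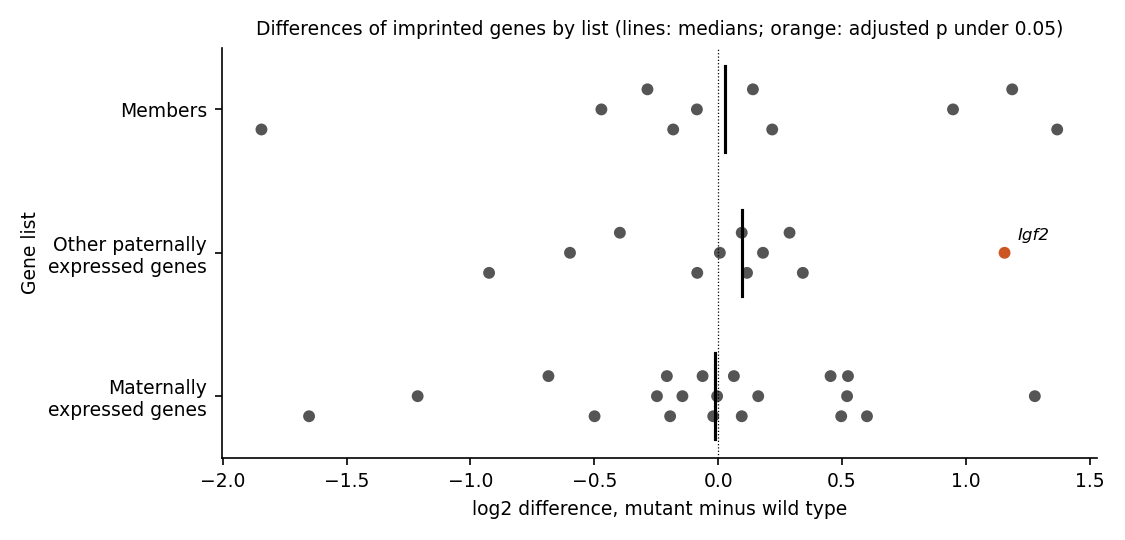
Mutant minus wild-type log2 differences of imprinted genes at their brightest probe sets, for the 10 members, 11 other paternally expressed genes and 20 maternally expressed genes, with lines at the medians (0.03, 0.10 and -0.01). Igf2, at 1.16, is the 1 gene past an adjusted p of 0.05, and each list spreads to both sides of 0.

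Control regions of imprinted genes are rich in CpG dinucleotides, the sites of DNA methylation, and several of them coincide with the start of the paternally expressed transcript. The sequence at the members' transcript starts was therefore set beside these values, from the RefSeq table of build GRCm38.p6 with 250 bases before and 50 after each start. Windows were found for 8 of the 10 genes, 12 in all; Sgce and Impact had none in the table. Over 32851 such windows of 27025 genes the median number of CpG was 7, with quartiles of 3 and 20. The members ran from 3 for Airn, through 5 at each Slc38a4 start, 8 at one Mest start, 9 for Dlk1, 10 for Magel2, 11 for Ndn and 13 for Peg3, to 17 at the other Mest starts and 26 for Plagl1. Plagl1 was at the 84.5th percentile of all windows and Airn at the 31.4th, so CpG content at the start was not shared by the set. The hexamer TGCCGC, the sequence bound by the imprint-protecting factor ZFP57 when methylated, was searched on both strands. It was found in 3 of the 12 member windows, from 2 of the 8 genes (Plagl1 and Mest), and in 11.6% of all windows. The 3 windows that held it include 2 of Mest that overlap almost fully, so their matches are the same sites.

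The windows with the fewest and the most CpG and that of Mest are shown to make this contrast visible, with every CpG in capitals and each read 5′ to 3′ on the strand of the gene. The Airn window is chr17:12741061-12741360 (plus strand), that of Mest chr6:30737800-30738099 (plus strand) and that of Plagl1 chr10:13090582-13090881 (plus strand).
Airn: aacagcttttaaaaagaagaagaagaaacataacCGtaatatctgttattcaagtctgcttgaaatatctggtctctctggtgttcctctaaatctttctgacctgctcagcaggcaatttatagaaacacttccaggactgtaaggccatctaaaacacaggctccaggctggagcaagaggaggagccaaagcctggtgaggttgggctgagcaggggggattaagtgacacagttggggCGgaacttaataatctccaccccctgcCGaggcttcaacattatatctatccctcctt
Mest: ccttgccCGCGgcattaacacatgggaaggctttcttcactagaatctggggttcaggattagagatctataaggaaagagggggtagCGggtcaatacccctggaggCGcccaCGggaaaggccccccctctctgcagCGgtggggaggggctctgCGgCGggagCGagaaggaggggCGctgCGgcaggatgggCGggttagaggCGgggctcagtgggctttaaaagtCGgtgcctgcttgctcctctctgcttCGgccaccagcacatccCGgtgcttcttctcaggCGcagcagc
Plagl1: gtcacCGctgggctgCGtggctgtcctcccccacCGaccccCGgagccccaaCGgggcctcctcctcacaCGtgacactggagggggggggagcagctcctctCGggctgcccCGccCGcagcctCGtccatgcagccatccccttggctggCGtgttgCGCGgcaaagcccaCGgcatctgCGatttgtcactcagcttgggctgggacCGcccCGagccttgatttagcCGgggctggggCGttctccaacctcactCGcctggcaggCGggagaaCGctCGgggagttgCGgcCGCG
Airn, the member with the largest difference at its brightest probe set, has 3 CpG in its window, and Plagl1 has 26. That difference did not pass the test in limma (adjusted p = 0.651), and the other tested Airn probe sets did not share it. A relation between CpG content and the differences was not tested. Methylation was not measured in these samples.

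**Figure D5:**
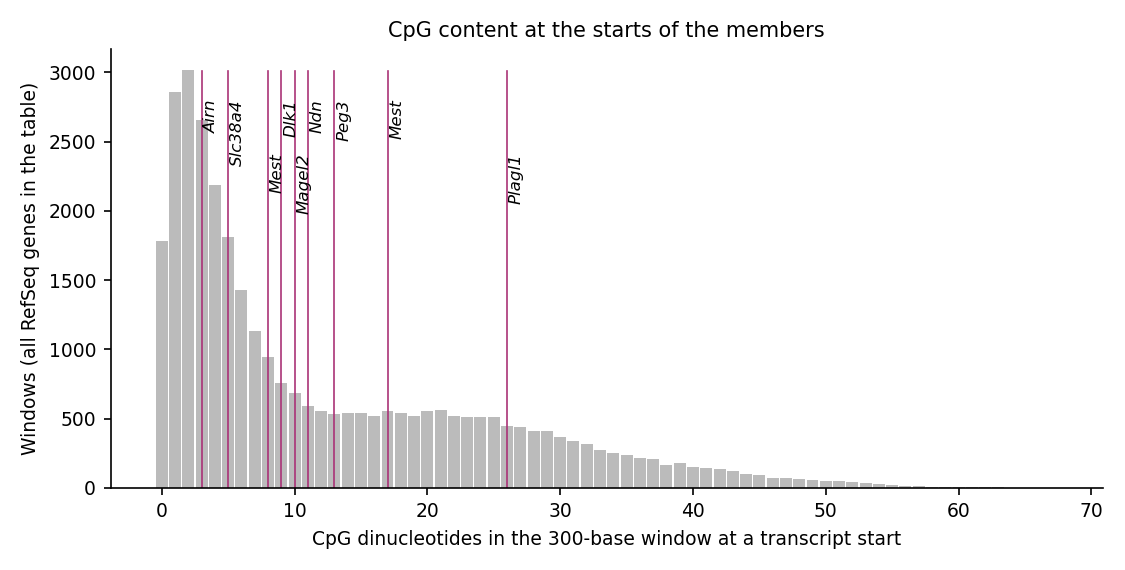
Number of CpG dinucleotides in 300-base windows at transcript starts (horizontal axis) against the number of RefSeq windows (grey bars), with lines at the windows of the members. The 8 members with a window in use lie between 3 (Airn) and 26 (Plagl1), on both sides of the median of 7.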

How the data were processed

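Affymetrix arrays with 45101 probe sets were hybridised with RNA from 9 captured samples, which per the labels' protocols had gone through 2 rounds of amplification and biotin labelling. The authors deposited linear intensities, 1 for each probe set on each array, made with GCOS per the submitters' processing notes. For the version and the algorithm, details were not given in the sources used here. The trimmed mean of every array, without the lowest and highest 2%, was 1500.01, so the deposited intensities were already scaled. Array medians ran from 144 to 195, and the number of arrays limits the precision.

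Genes were named from the platform annotation (34958 probe sets with 1 symbol, 932 with several, 9211 with none). Intensities were taken as log2(value + 42.4), the constant being the 25th percentile of all values, and quantile normalised. The 64 control probe sets were not tested, nor those whose mean lay below the 40th percentile, which left 27022. Group differences (mutant minus wild type) came from lmFit and eBayes with a trend in limma 3.58.1, run in R 4.3.3 and two-sided, with Benjamini-Hochberg adjustment over all 27022 at 0.05; unmarked adjusted p-values come from it. Single values were also compared by two-sided exact permutation over every split of the arrays into 5 and 4, whose smallest p is 0.00794. Correlations used all orders of the 9 arrays, two-sided, with adjustment over 19. Each gene is represented by the probe set that was brightest on average. The scripts were tested on simulated data.

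Every member was named, and 14 other imprinted genes whatever their result, plus any listed gene past the threshold. Of these H19 and Zrsr1 had no probe set with that single symbol. Rian, Mirg, Ppp1r9a and Asb4 were added after their values were seen, as neighbours of members. The members and gene lists were chosen with earlier results of these data known. Nothing says that samples came from separate litters, so p-values measure the spread between these samples. Replicate numbers were not used as pairs in the main fit, and same-numbered arrays did not deviate together. Alternatives covered normalisation, filter, pseudocount, variance trend, array weights, the replicate block and left-out arrays.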

Additional observations from a re-analysis of the deposited data

Results flagged for a closer look

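Among 36 groups of deposited linear signals (18 genes in each of the 2 genotypes), Dixon's 95% criterion marked 4 with a single extreme array. About 1.8 (about 1 in 20) would be marked by chance if the signals were normally distributed. Linear signals with a long upper tail can be marked more often, so the 4 cannot be set against that number. The criterion was not applied to log2 signals. Wild-type array 3 had a Dlk1 signal of 3067, against 213 to 973 on the other wild-type arrays. It also had a Meg3 signal of 68099, against 2277 to 11479. Impact read 4532 on mutant array 4 and 2410.0 to 2569 on mutant arrays 1 to 3. Nnat read 706 on mutant array 2, while mutant arrays 1, 3 and 4 lay between 267 and 326.5.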

How the results depend on the processing

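Under 19 alternatives 0 member probe sets passed in limma. Of 189 values of the 10 genes at their brightest probe sets, 185 kept their direction and 4 reversed, all of them with 1 array left out: Peg3 without wild-type array 1 (-0.019), Mest without wild-type array 3 (0.094), and Plagl1 without wild-type array 2 (0.02) and mutant array 4 (0.30). Over all probe sets 9 passed (4 higher and 5 lower in the mutants, and 3 and 6 of 9 with median centring), 3 to 8 with each array left out in turn, and 0 in limma without wild-type arrays 1 and 3 (2012 at an unadjusted p under 0.05). With the replicate block 0 passed (1756 at an unadjusted p under 0.05). Same-numbered arrays deviated together in 0 of 4 pairs (r of -0.11 to 0.05). So few pairs cannot show whether same-numbered samples were handled together. A few near-zero differences turned sign. With median centring Mkrn3 was -0.041 and the brighter of the other Peg3 probe sets -0.010, and with the pseudocount at the 10th percentile Mkrn3 was -0.0040. With the pseudocount at the median that Peg3 probe set was -0.039 and the other Impact probe set -0.0083. With array weights the Airn probe set at 0.15 turned to -0.45. With the replicate block Meg3 was -0.34, that Peg3 probe set -0.76, the Ndn probe set at -0.03 turned to 0.0072, the other Impact probe set -0.22 and the Airn probe set at 0.12 turned to -0.17. Without wild-type arrays 1 and 3, Grb10 was -0.066, the other Impact probe set -0.16 and the Airn probe set at 0.15 turned to -0.79. The causes were not tested. The median over the members stayed between -0.09 and 0.15. With each array left out in turn, Peg3 ran from -0.019 to 0.29, Mest from -0.36 to 0.094, Plagl1 from -0.70 to 0.30, Meg3 from -0.34 to 0.82, Cdkn1c from -0.18 to 0.14, Grb10 from -0.041 to 0.21, Nnat from -0.15 to 0.36, Mkrn3 from -0.43 to 0.46 and Copg2 from -0.48 to 0.19. The dimmer probe sets spanned 0 as well: Peg3 -0.75 to 0.60 and -0.21 to 0.57, Ndn -0.20 to 0.11, Plagl1 -1.17 to 0.17, Impact -0.37 to 0.79, and Airn -0.94 to 0.18, -0.44 to 0.998 and -0.17 to 0.62. Dim signals limit what can be seen at Magel2, Airn and the second probe sets of Dlk1, Peg3 and Impact.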
